A study of Homo sapiens with 16 samples.

Results

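H9 human embryonic stem cells were compared after transfection of siRNA against SALL4, a zinc-finger transcription factor, and against SEPHS1, a relative of the selenophosphate synthetases. The comparison used 6 of the 16 RNA-seq libraries of the series, taken by their labels: 3 with SALL4 siRNA and 3 with SEPHS1 siRNA. H9 is an established embryonic stem cell line, and every library came from an H9 line that carries EGFP under the REX1 promoter (genotype Rex1-EGFP). Cells were kept feeder-free in mTeSR1 on a Matrigel coat, and siRNA was transfected at 30 to 50 nM with DharmaFECT 1. The SALL4 and SEPHS1 siRNAs were esiRNAs, mixed short duplexes cut by an enzyme from a long double-stranded RNA. SALL4 siRNA cells were harvested 48 h and SEPHS1 siRNA cells 72 h after transfection. Target gene and harvest time cannot be told apart in these 6 libraries. Another line of the protocol describes a longer growth than these times. The labels describe the replicates of a group as independent biological replicates.

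The other 10 libraries were used to place the levels: Luciferase (n = 2, an esiRNA against Renilla luciferase, harvest time not given), Control (n = 2, type of siRNA and harvest time not given), VRTN (n = 3, a synthetic siRNA pool, 48 h) and DSCC1 (n = 3, an esiRNA, 72 h). VRTN against DSCC1 is the other pair harvested at 48 h and 72 h, and it shares no library with the comparison of interest. It differs in its targets and also in how one of its siRNAs was made.

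SALL4 binds AT-rich DNA and recruits the NuRD histone deacetylase complex, and in embryonic stem cells it works beside POU5F1, SOX2 and NANOG. SEPHS1 resembles SEPHS2, the enzyme that makes selenophosphate for selenocysteine, but it does not carry that step itself and is known for its part in redox balance. Selenocysteine is the residue that gives glutathione peroxidases and thioredoxin reductases their activity.

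Total counts lay between 18597262 and 28662389 in the 16 libraries, with 22842305 to 28608244 in the SALL4 and 21690676 to 25471833 in the SEPHS1 libraries. SEPHS1 replicate 3 stood apart: its 50 most abundant genes took 61.4% of its counts, against 41.33% to 54.78% in the other 15 libraries, and 14725 genes reached 10 counts in it, the lowest number of the 16. The embryonic stem cell markers POU5F1, SOX2, NANOG, LIN28A, DNMT3B and TDGF1 all passed 1 CPM in every library. The seventh, ZFP42, had 0 counts in all 16 at the identifier that was read for it. Whether the gene is silent or its reads were not counted there was not tested. Markers of blood and endothelium summed to 2.46 to 9.18 CPM in the 6 libraries. The 11 fibroblast markers summed to 517 to 1300 CPM with SALL4 and 1280 to 1500 CPM with SEPHS1 siRNA, most of it COL1A1. CPM are counts scaled to library size and by TMM, a factor that evens out library composition, on 1 scale for all 16 libraries.

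The targeted genes were read first. SEPHS1 (chr10:13317424-13348298, GRCh38, minus strand) was at 76.6, 47.4 and 52.4 CPM in the SEPHS1 libraries and at 168, 189 and 240 CPM in the SALL4 libraries. Elsewhere it was at 307 to 422 CPM. SEPHS1 mRNA was thus lowest with its own siRNA, and the SALL4 libraries also lay below all 10 others. The difference, SALL4 minus SEPHS1 siRNA, was 1.76 ± 0.19 on the log2 scale (SE, n = 3 against 3, edgeR quasi-likelihood adjusted p = 0.000722). In these bulk samples fewer cells of a type and less RNA per cell cannot be told apart, here and for every gene below.

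SALL4 (chr20:51782331-51802520, minus strand) was at 185, 205 and 226 CPM in the SALL4 libraries and at 251, 229 and 226 CPM in the SEPHS1 libraries. The highest SALL4 library and the lowest SEPHS1 library met at 226 CPM, and the difference of -0.20 ± 0.12 did not pass the test (adjusted p = 0.506). The other 10 libraries ranged from 235 to 291 CPM, above all 3 SALL4 libraries. The mean was 205 ± 20.5 CPM with SALL4 siRNA (SD, n = 3) and 236 ± 13.4 CPM with SEPHS1 siRNA (SD, n = 3), against a mean of 260 CPM over the other 10.

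**Figure D1:**
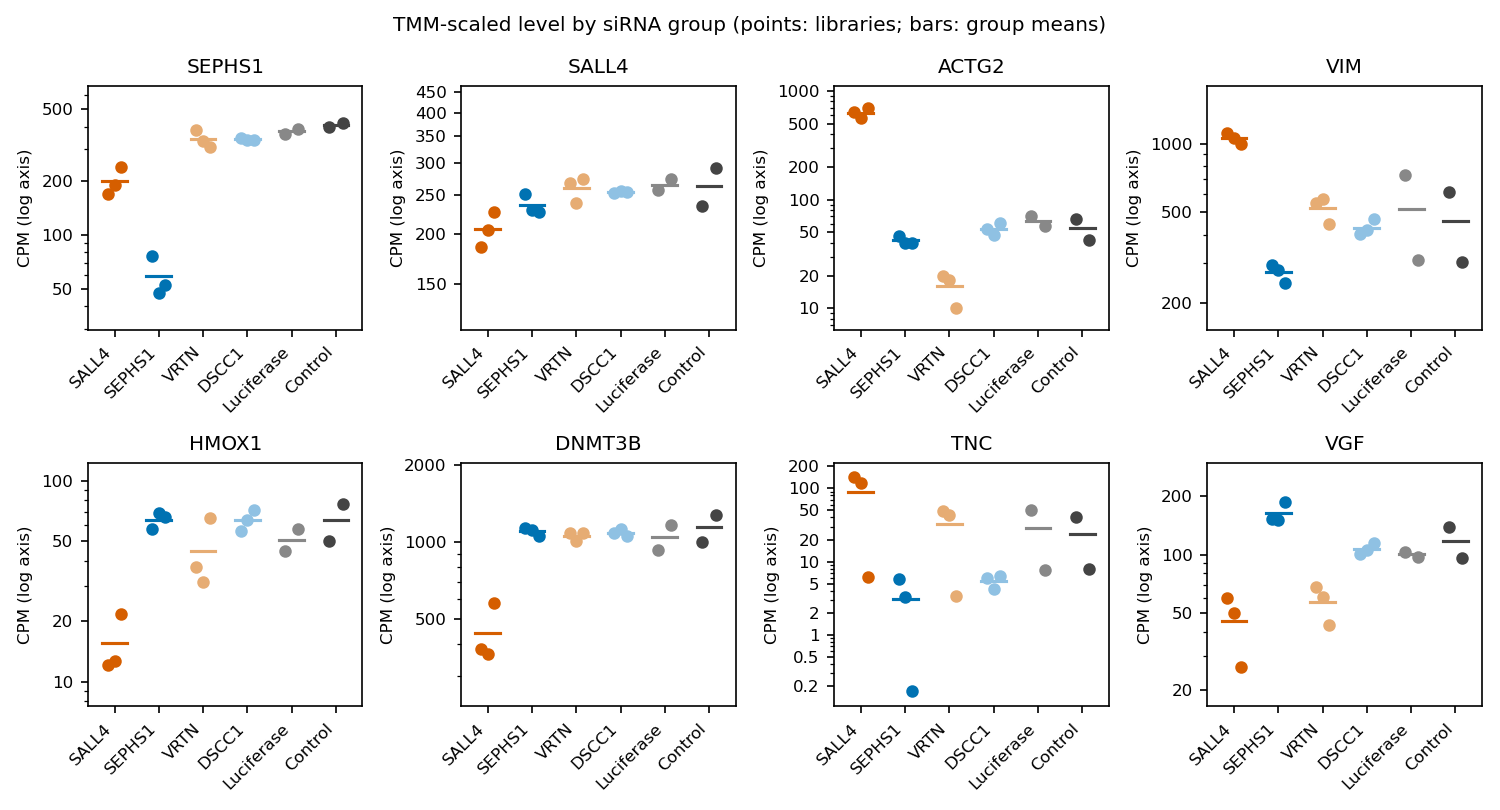
TMM-scaled level in CPM (log axis) of 8 genes in the 16 libraries, by siRNA group; points are libraries and bars are group means. SEPHS1 mRNA is lowest in its own libraries (mean 58.8 CPM), ACTG2 stands at 627 CPM in the SALL4 group alone, and TNC is low in 1 SALL4 library (6.24 CPM).

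Of 15714 genes tested, 359 (2.28%) differed between the groups at an adjusted p under 0.05, which is what "called" means throughout. With SALL4 siRNA 265 genes (1.69%) were higher and 94 (0.598%) lower. After a correction for transcript length and GC content the split was 233 higher and 180 lower. The called change was at least 2-fold for 187 of the higher and 36 of the lower genes. The median over all genes tested was 0.01. Counts of list members below are edgeR calls over all 6 libraries unless another tool or a left-out library is named. In 352 of the 359 genes the groups did not overlap, where over all genes the SALL4 libraries lay all above in 12.1% and all below in 9.95%.

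SALL4 replicate 3 decided much of this count. Without it 1009 genes were called, and without any other 1 of the 6 libraries 54 to 151 were called, the fewest without SALL4 replicate 2 or SEPHS1 replicate 2 (54 and 55). A set of 38 genes, 33 higher and 5 lower, kept the call when each library in turn was left out, and the text says of every other called gene below which libraries its call rested on. The higher genes had a median transcript length of 4170 bases and a median GC content of 53.1%, against 3330 bases and 49.1% over all genes. The lower genes had 2520 bases and 49.2%. The rank correlation of level with GC was taken across 5474 genes, each library against the mean of all 16 libraries. It was 0.316, 0.0753 and -0.00908 in the SALL4 and -0.311, -0.177 and 0.00248 in the SEPHS1 libraries. The same correlation with transcript length was 0.156, 0.059 and -0.209 in the SALL4 and -0.0672, -0.253 and -0.225 in the SEPHS1 libraries. The correction above, chosen after seeing the data, left the genes named here as called unless it is said otherwise. The part of length and GC in the calls was not tested.

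ACTG2, the gamma actin of smooth muscle, showed the smallest p of all. Its level was 633, 556 and 691 CPM in the SALL4 libraries and 46.5, 40.2 and 39.9 CPM in the SEPHS1 libraries. The other 10 libraries held 10.2 to 70.0 CPM, so the SALL4 libraries lay far above every other library. The difference was 3.89 ± 0.14 (adjusted p = 1.34e-08). In VRTN against DSCC1 ACTG2 went the other way, at 20, 18.2 and 10.2 CPM against 54.0, 47.6 and 60.4 CPM, a difference of -1.74 (adjusted p = 0.000131).

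The listed contractile genes did not move as a block: 3 of 15 tested were higher and 1 was lower, with a median of 0.22. TAGLN, which encodes the actin-binding protein transgelin, stood at 718, 683 and 666 CPM with SALL4 and 422, 500 and 467 CPM with SEPHS1 siRNA, a difference of 0.57 ± 0.11 (adjusted p = 0.018). Its SALL4 libraries lay within the range of the other 10 (580 to 852 CPM) and its SEPHS1 libraries below it. TPM1, a tropomyosin, was higher by 0.60 ± 0.14 (adjusted p = 0.0474), and that call ended with 2 other scalings (adjusted p 0.0515 and 0.076). ACTA1, the actin of skeletal muscle, was lower: 39.4, 37.5 and 25 CPM against 68.2, 67.7 and 63.3 CPM, or -0.97 ± 0.19 (adjusted p = 0.0184). The calls of TAGLN and TPM1 ended without any 1 library other than SALL4 replicate 3 (adjusted p 0.0684 to 0.094 and 0.0624 to 0.184). That of ACTA1 ended without SALL4 replicate 2, SEPHS1 replicate 1, 2 or 3 (0.0878, 0.0728, 0.116 and 0.0656).

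ACTG2 and ACTA1 moved in opposite directions, yet the stretch before a RefSeq start of each gene holds a CArG box, the element bound by serum response factor. The stretches are shown for that contrast, from RefSeq on GRCh38.p14, 5′ to 3′ on the gene's strand, with the CArG box in capitals.
ACTG2, chr2:73892758-73892934, plus strand: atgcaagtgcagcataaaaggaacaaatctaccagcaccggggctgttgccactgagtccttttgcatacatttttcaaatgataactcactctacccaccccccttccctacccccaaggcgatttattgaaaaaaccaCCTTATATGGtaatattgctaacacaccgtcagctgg
ACTA1, chr1:229434099-229434344, minus strand: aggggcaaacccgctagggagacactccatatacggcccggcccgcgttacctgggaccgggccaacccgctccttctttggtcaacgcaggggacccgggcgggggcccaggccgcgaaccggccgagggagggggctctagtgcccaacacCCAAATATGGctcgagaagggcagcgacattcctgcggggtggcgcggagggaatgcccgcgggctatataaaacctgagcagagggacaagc
The capitals begin 110 bases before the RefSeq start of ACTG2 and 97 bases before that of ACTA1. ACTG2 has 2 CArG boxes in the 250 bases before that RefSeq start, the other outside the stretch shown. The ACTG2 stretch lies inside the span that GENCODE gives the gene (chr2:73892314-73919865), outside exons. Searched on both strands, the element occurs in the 250 bases before the start in 1.44% of 27305 genes and in 4 of 17 contractile genes with a window (23.5%). A match describes the letters and says nothing of binding.

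Other large rises fell into genes of the cell surface and matrix and genes of signalling and transcription. TNC encodes the matrix protein tenascin C. It was at 141, 117 and 6.24 CPM with SALL4 and 5.82, 3.29 and 0.169 CPM with SEPHS1 siRNA, so SALL4 replicate 3 was only just above the highest SEPHS1 library. The fitted difference was 4.80 ± 0.96 (adjusted p = 0.0218). FST, follistatin, which binds activin, showed the same layout at 76.8, 69.4 and 6.89 CPM against 4.92, 4.36 and 1.24 CPM (3.84 ± 0.71, adjusted p = 0.0153). Both genes also varied between replicates elsewhere: TNC stood at 49.4, 43.9 and 3.43 CPM in VRTN, 50.6 and 7.68 CPM in Luciferase and 40.1 and 7.80 CPM in Control libraries. Their calls ended without any 1 library other than SALL4 replicate 3 (adjusted p 0.0664 to 0.157 and 0.0649 to 0.124), and with limma-voom (0.215 and 0.06).

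The next 3 rises kept their calls with each library left out. CDH4, which encodes R-cadherin, stood at 55.8, 53.9 and 42.0 CPM against 7.24, 4.98 and 16.2 CPM (2.43 ± 0.35, adjusted p = 0.00426). ADAM19, a membrane metalloprotease, stood at 144, 138 and 115 CPM against 20.5, 31.1 and 25.8 CPM (2.36 ± 0.18, adjusted p = 4.22e-05). The 10 other libraries held 37.7 to 55.2 CPM of ADAM19, so both groups lay outside them, on opposite sides. B3GNT7, a glycosyltransferase of keratan sulfate, was at 123, 128 and 57.9 CPM against 23.1, 24.7 and 17.7 CPM (2.24 ± 0.27, adjusted p = 0.000935). SALL4 replicate 3 was the lowest of its group, yet B3GNT7 was likewise above the range of the other 10 in all SALL4 and below it in all SEPHS1 libraries.

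Among transcription factors FEZF1, a zinc-finger protein of the early forebrain, was at 40.0, 37.4 and 29.1 CPM with SALL4 and 3.07, 5.93 and 4.69 CPM with SEPHS1 siRNA (2.96 ± 0.28, adjusted p = 0.000283). The other 10 libraries held 3.91 to 10.5 CPM, so the SALL4 group alone stood apart. TOX2, an HMG-box protein, differed by 2.54 ± 0.27 (adjusted p = 0.000722) and ETS1, the founding ETS factor, by 2.49 ± 0.32 (adjusted p = 0.00165). For these genes the SALL4 libraries lay above and the SEPHS1 libraries below the other 10. In signalling, DGKK, a diacylglycerol kinase, was higher by 2.91 ± 0.26 (adjusted p = 0.000165). The calcium-dependent kinase gene CAMK2D was higher by 2.23 ± 0.26 (adjusted p = 0.000935). IER3, an immediate early gene, was at 352, 327 and 178 CPM against 34.3, 50.9 and 69.5 CPM (2.47 ± 0.27, adjusted p = 0.000722), with 46.4 to 114 CPM in the other 10. All 6 calls held with each library left out.

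The steepest fall was in HMOX1 (chr22:35380361-35394214, plus strand), the heme oxygenase induced by oxidative stress. Its level was 12.1, 12.7 and 21.8 CPM with SALL4 and 57.3, 68.8 and 65.8 CPM with SEPHS1 siRNA. The SEPHS1 libraries lay inside the range of the other 10 (31.3 to 76.8 CPM), and the SALL4 libraries lay below it. The difference was -2.04 ± 0.23 (adjusted p = 0.000772). Of the 32 listed NRF2, glutathione and peroxide defence genes that were tested, edgeR called HMOX1 alone, and their median was -0.02. DESeq2, limma-voom and edgeR without SALL4 replicate 3 each called 1 higher and 3 lower.

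VGF, a neuropeptide precursor, followed at 59.9, 49.9 and 26.5 CPM against 153, 150 and 186 CPM (-1.84 ± 0.24, adjusted p = 0.00202). Here the SEPHS1 libraries lay above the other 10 (43.5 to 139 CPM) and the SALL4 libraries within or below them. POLR3G, a subunit of RNA polymerase III typical of pluripotent cells, was at 17.1, 18.0 and 31.5 CPM against 72.8, 47.2 and 60.7 CPM (-1.44 ± 0.25, adjusted p = 0.0105). CREB3L1, a membrane-bound bZIP factor, fell by 1.33 (SE 0.21, adjusted p = 0.00697). MAL2, a protein of apical transport, fell by 1.32 (SE 0.25, adjusted p = 0.016). The family members FAM86B1 and FAM86C1P were lower by 1.75 and 1.36 (adjusted p = 0.00819 for each). They have near-identical copies, and how reads were divided among those copies is uncertain.

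Of these falls HMOX1 and VGF kept their calls with each library left out. Those of POLR3G and MAL2 ended without any 1 library other than SALL4 replicate 3 (adjusted p 0.0517 to 0.088 and 0.0557 to 0.117). That of CREB3L1 ended without SALL4 replicate 2 or SEPHS1 replicate 2 (0.0652 and 0.0669), and that of FAM86C1P without the same libraries (0.0718 and 0.0591). FAM86B1 lost its call without SALL4 replicate 2 (0.0718).

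A second look placed each called gene against the other 10 libraries. Of the 265 higher genes, 87 (32.8%) had all SALL4 libraries above that range with SEPHS1 not outside it. In 44 (16.6%) the SEPHS1 libraries lay below it with SALL4 not outside, in 13 (4.91%) both groups lay outside on opposite sides, and in 120 (45.3%) neither group did. The remaining gene, SEPHS1, had both groups below. Of the 94 lower genes, 31 (33.0%) had SALL4 below only, 9 (9.57%) SEPHS1 above only, 3 (3.19%) both, and 51 (54.3%) neither. Over all genes tested 92.6% had neither group outside, and the SALL4 libraries alone lay above in 2.5% and below in 1.76%. The SEPHS1 libraries alone lay below in 1.74% and above in 1.11% of all genes. Both groups lay outside on opposite sides in 0.0827% with SALL4 above and in 0.0255% with SALL4 below. Calls require a difference between the groups, so these shares describe the called genes and test nothing.

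VIM, the intermediate filament of mesenchymal cells, had the second smallest p and lay outside on both sides. It was at 1120, 1060 and 999 CPM with SALL4 and 294, 280 and 245 CPM with SEPHS1 siRNA, against 303 to 729 CPM in the other 10 (1.96 ± 0.11, adjusted p = 2.93e-06). COL18A1, a basement membrane collagen, was at 269, 229 and 195 CPM against 114, 97.8 and 103 CPM, with 119 to 173 CPM elsewhere (1.14 ± 0.14, adjusted p = 0.00145). VIM and COL18A1 kept their calls with each library left out.

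The 3 genes with SALL4 below and SEPHS1 above were PSAT1, CD24 and ELOA. PSAT1, an enzyme of serine synthesis, was at 94.7, 114 and 136 CPM against 198, 206 and 218 CPM, with 148 to 194 CPM in the other 10 (-0.85 ± 0.14, adjusted p = 0.00968). CD24, a surface glycoprotein with near-identical copies in the genome, fell by 0.89 (SE 0.18, adjusted p = 0.0215), and the elongation factor gene ELOA by 0.68 (SE 0.14, adjusted p = 0.0293). The call of PSAT1 ended without SALL4 replicate 2, SEPHS1 replicate 2 or SEPHS1 replicate 3 (0.0746, 0.08 and 0.0557). Those of CD24 and ELOA ended without any 1 library other than SALL4 replicate 3 (0.0816 to 0.141 and 0.0865 to 0.151).

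Mesenchymal genes were the list with the highest median: 9 of 26 tested were higher, none lower, with a median of 1.36 against 0.01 over all genes. Besides VIM, COL6A1, a chain of collagen VI, was at 530, 423 and 587 CPM with SALL4 and 177, 203 and 202 CPM with SEPHS1 siRNA (1.40 ± 0.14, adjusted p = 0.000392). The SALL4 libraries lay above the other 10, which held 116 to 297 CPM. Its partner chain COL6A2 was higher by 1.45 ± 0.15 (adjusted p = 0.000722). CDH2, N-cadherin, which is counted among early neural genes as well, was at 77.0, 74.8 and 50.6 CPM against 23.3, 15.6 and 14.5 CPM (1.92 ± 0.23, adjusted p = 0.000935). These 4 genes kept their calls with each library left out, while the list's count ranged from 4, without SALL4 replicate 2 or SEPHS1 replicate 2, to 13, without SALL4 replicate 3. With the length and GC correction it was 8 higher and 1 lower. The fibroblast collagen COL1A1 was at 1200, 1030 and 462 CPM with SALL4 and 1230, 1320 and 1460 CPM with SEPHS1 siRNA and was not called (-0.58 ± 0.25, adjusted p = 0.273). After the length and GC correction its adjusted p was 0.0304. The 11 fibroblast markers as a whole gave the sums above, lower rather than higher in 2 of the 3 SALL4 libraries. Of 7 fibroblast genes tested edgeR called none (median 0.84), where 3 had an unadjusted p under 0.05 and DESeq2 and limma-voom each called 1.

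**Figure D2:**
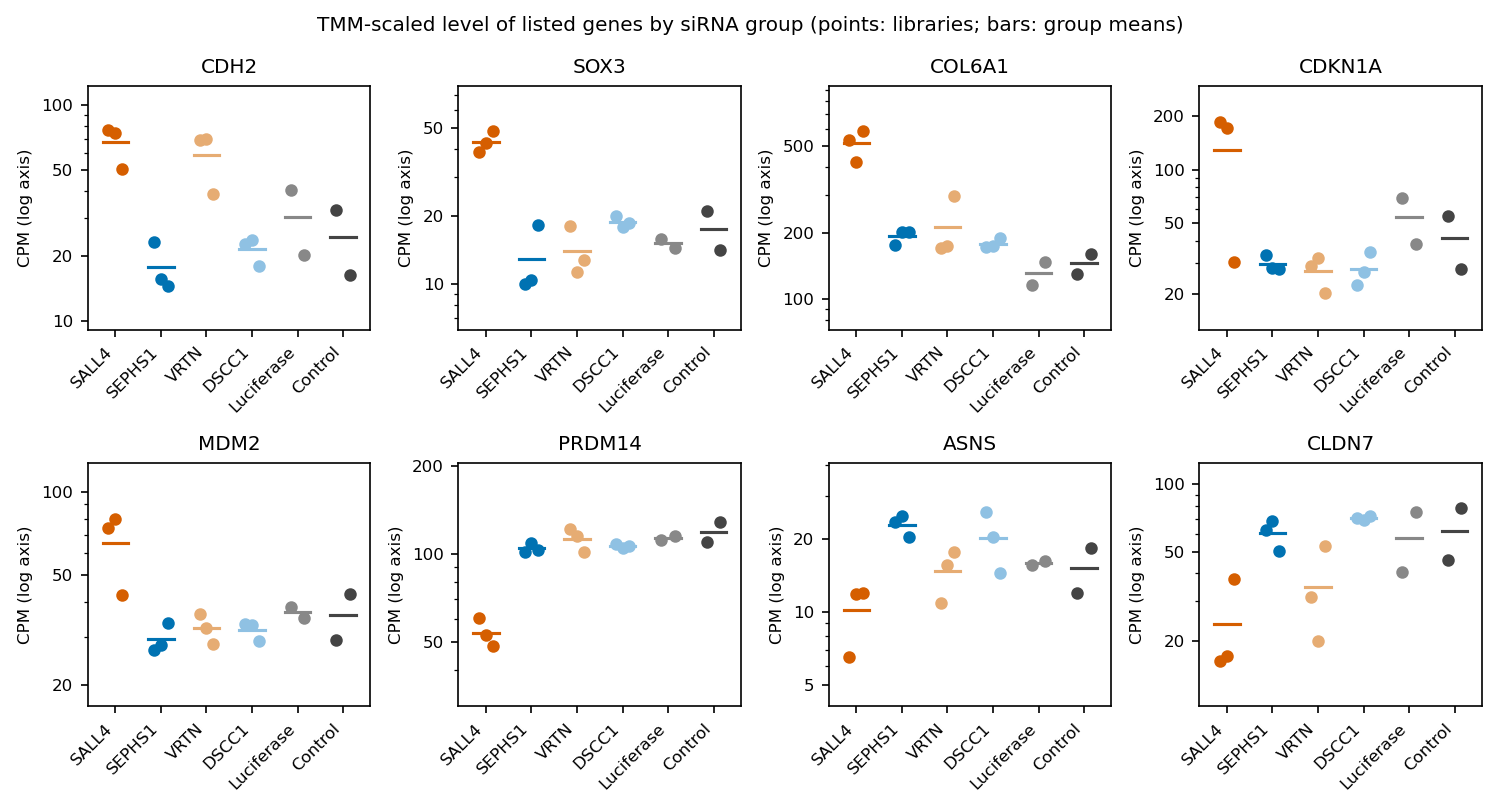
TMM-scaled level in CPM (log axis) of 8 listed genes in the 16 libraries, by siRNA group; points are libraries and bars are group means. The group means of CDH2, SOX3, COL6A1 and MDM2 are highest with SALL4 siRNA. For CDH2, SALL4 replicate 3 (50.6 CPM) lies below VRTN replicates 1 and 2 (69.1 and 69.6 CPM). CDKN1A reaches 184 and 171 CPM in 2 SALL4 libraries but 30.5 CPM in the other. PRDM14, ASNS and CLDN7 lie lower with SALL4 than with SEPHS1 siRNA.

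Epithelial genes lay the other way: 3 of 29 tested were lower, none higher, with a median of -0.54. Without SALL4 replicate 1 or 2 or SEPHS1 replicate 1 or 2 none was called, without SEPHS1 replicate 3 there was 1 lower, and without SALL4 replicate 3 there were 6 lower. Limma-voom called 1 higher and 9 lower. CLDN7, a tight junction claudin, was at 16.3, 17 and 37.8 CPM against 62.5, 68.7 and 50.1 CPM (-1.35 ± 0.29, adjusted p = 0.0294). CDH1, E-cadherin, was at 139, 144 and 145 CPM against 245, 217 and 191 CPM (-0.61 ± 0.13, adjusted p = 0.0282). In the VRTN libraries CLDN7 stood at 31.2, 19.9 and 53.1 CPM and CDH1 at 139, 130 and 175 CPM. PLEKHA6, a junction protein, was at 1.99, 3.94 and 3.41 CPM against 13.0, 11.2 and 10.3 CPM (-1.88 ± 0.36, adjusted p = 0.0186). The calls of CLDN7 and PLEKHA6 ended without any 1 library other than SALL4 replicate 3 (0.0747 to 0.174 and 0.0517 to 0.101). That of CDH1 ended without SALL4 replicate 1 or 2 or SEPHS1 replicate 1 or 2 (0.109, 0.145, 0.109 and 0.144).

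In the basement membrane list 4 of 17 tested were higher, none lower, with a median of 0.51. The count was 8 without SALL4 replicate 3 and 1 to 2 without any other 1 library, and 2 with the length and GC correction. Beside COL18A1 these were LAMA5, a laminin alpha chain, at 546, 405 and 325 CPM against 202, 213 and 223 CPM (1.00 ± 0.17, adjusted p = 0.00858), the proteoglycan agrin gene AGRN (0.77 ± 0.15, adjusted p = 0.02) and the laminin gamma chain gene LAMC1 (0.81 ± 0.19, adjusted p = 0.0427). AGRN and LAMC1 were not called after the length and GC correction (adjusted p = 0.175 and 0.0671). The matrix receptor subunit ITGB5 was the called member of 13 integrins, at 82.4, 83.3 and 92.3 CPM against 37.5, 40.6 and 36.2 CPM (1.17 ± 0.14, adjusted p = 0.00118), and its call held with each library left out. That of LAMA5 ended without SALL4 replicate 2 or SEPHS1 replicate 1 or 2 (0.0552, 0.0532 and 0.0909). That of AGRN ended without any 1 library other than SALL4 replicate 3 (0.0519 to 0.143), and that of LAMC1 without SALL4 replicate 1 or 2 or SEPHS1 replicate 2 or 3 (0.137, 0.221, 0.184 and 0.145).

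Early neural genes had a median of 1.31, with 3 of 19 tested higher and none lower. Limma-voom called 4 higher and 1 lower, and the length and GC correction gave 3 higher and 1 lower. These were FEZF1 and CDH2, given above, and SOX3, a SOX factor of neural progenitors. SOX3 was at 39.1, 42.5 and 48.1 CPM with SALL4 and 9.93, 10.4 and 18.3 CPM with SEPHS1 siRNA (1.75 ± 0.25, adjusted p = 0.00418). The other 10 libraries held 11.3 to 21.1 CPM, so the SALL4 group alone was apart. Without SEPHS1 replicate 2 its adjusted p was 0.0564. The 6 defining neural markers PAX6, SOX1, NES, FABP7, DCX and NEUROG2 summed to 75.6 to 89.4 CPM with SALL4 and 92.2 to 131 CPM with SEPHS1 siRNA, the lower sums being in the SALL4 libraries.

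In the pluripotency list edgeR called 4 of 31 tested lower and none higher, with a median of -0.12. Without SALL4 replicate 3 it called 4 higher and 8 lower (median -0.03), and without any other 1 library 1 to 3 lower, the fewest without SALL4 replicate 2 or SEPHS1 replicate 2. DESeq2 called 2 higher and 7 lower, and limma-voom 4 higher and 11 lower. DNMT3B (chr20:32762385-32809356, plus strand), the de novo DNA methyltransferase of primed stem cells, was at 382, 364 and 579 CPM with SALL4 and 1130, 1110 and 1060 CPM with SEPHS1 siRNA. It was at 929 to 1280 CPM in the other 10, so the SEPHS1 libraries lay among them and the SALL4 libraries far below. The difference was -1.31 ± 0.16 (adjusted p = 0.00104) and kept its call with each library left out. PRDM14, a transcriptional regulator of pluripotency, was at 60.5, 52.8 and 48.3 CPM against 101, 109 and 103 CPM (-0.95 ± 0.14, adjusted p = 0.00561), again with the SALL4 libraries below all others. SALL2, a SALL family member, fell by 0.77 (SE 0.13, adjusted p = 0.0105), and CD24 was given above. The call of PRDM14 ended without SALL4 replicate 2 or SEPHS1 replicate 2 (0.056 and 0.0591), and that of SALL2 without SALL4 replicate 1 or 2 or SEPHS1 replicate 2 (0.0532, 0.0834 and 0.1).

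The core factors, chosen after their values were seen, were not called. POU5F1 was at 225, 234 and 225 CPM against 217, 210 and 185 CPM (0.16 ± 0.12, adjusted p = 0.59). SOX2 was at 182, 224 and 219 CPM against 190, 207 and 220 CPM (0.02 ± 0.13, adjusted p = 0.966). NANOG was at 152, 138 and 73.3 CPM against 97.5, 75.4 and 89.1 CPM (0.47 ± 0.22, adjusted p = 0.335), with SALL4 replicate 3 below all 3 SEPHS1 libraries.

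In the SALL family, where the values were seen before the genes were chosen, SALL1 was at 143, 142 and 88.5 CPM against 59.1, 61.5 and 45.6 CPM (1.17 ± 0.20, adjusted p = 0.00912). SALL3 differed by 0.61 ± 0.18 and was not called (adjusted p = 0.0992). Luciferase replicate 1 and Control replicate 1 also held 137 and 124 CPM of SALL1, where their second replicates held 58.7 and 69.4 CPM. The call of SALL1 ended without SALL4 replicate 1 or 2 or SEPHS1 replicate 2 or 3 (0.0532, 0.0746, 0.0669 and 0.0586). Of 15 NuRD genes tested 2 were higher, MTA1 (0.72 ± 0.15, adjusted p = 0.023) and the remodeller gene CHD3 (1.55 ± 0.34, adjusted p = 0.0336), with a median of 0.17. CHD3 was not called after the length and GC correction (0.0578) or without SALL4 replicate 1 or 2 or SEPHS1 replicate 1 or 2 (0.164, 0.1, 0.117 and 0.165). MTA1 was not called without any 1 library other than SALL4 replicate 3 (0.0962 to 0.151).

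Among the signalling lists WNT genes had 5 of 29 tested higher, none lower, with a median of 0.66. Limma-voom called 3 higher and 1 lower, and DESeq2 and edgeR without SALL4 replicate 3 called 7 higher each. The receptor gene FZD7 was at 244, 234 and 185 CPM against 150, 152 and 124 CPM (0.64 ± 0.14, adjusted p = 0.0378). The receptor gene FZD5 was at 42.2, 43.6 and 44.3 CPM against 23, 20.8 and 28.2 CPM (0.85 ± 0.18, adjusted p = 0.0282) and was not called after the length and GC correction (0.0636). The ligand gene WNT3 had 380, 468 and 91 counts with SALL4 and 10, 10 and 0 counts with SEPHS1 siRNA (adjusted p = 0.00667). The secreted inhibitor gene FRZB had 228, 276 and 154 counts against 11, 26 and 0 (adjusted p = 0.027). SP5, a WNT target named after its values were seen, had 638, 439 and 16 counts against 26, 11 and 17 (adjusted p = 0.0441), and SALL4 replicate 3 overlapped the SEPHS1 libraries. It was not called after the length and GC correction (0.0507).

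Without SALL4 replicate 2 or SEPHS1 replicate 2 none of the WNT genes was called: their adjusted p was 0.0761 and 0.064 for WNT3, 0.191 and 0.0669 for FRZB, 0.145 and 0.151 for FZD5, 0.198 and 0.144 for FZD7, and 0.192 and 0.202 for SP5. FRZB and FZD5 also lost the call without SALL4 replicate 1 (0.11 and 0.101) or SEPHS1 replicate 1 (0.0908 and 0.0968). FZD7 and SP5 lost it without any 1 library other than SALL4 replicate 3 (0.0961 to 0.198 and 0.117 to 0.206). With limma-voom WNT3, FRZB and SP5 were not called (0.127, 0.0556 and 0.304).

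NODAL and TGF-beta genes had 3 of 26 tested higher, none lower, with a median of 0.42. Without SALL4 replicate 3 there were 5 higher and 1 lower, without SEPHS1 replicate 1 or 3 there was 1 higher, and without any other 1 library none was called. LEFTY2, a NODAL antagonist, was at 13.0, 10.7 and 5.99 CPM against 0.804, 1.85 and 1.98 CPM (2.68 ± 0.48, adjusted p = 0.0126). PMEPA1, a feedback inhibitor of TGF-beta signalling, was at 49.6, 49.8 and 30.0 CPM against 17.2, 19.0 and 18.5 CPM (1.24 ± 0.22, adjusted p = 0.0118). The inhibitory SMAD6 had 138, 21 and 93 counts against 0, 2 and 2, too few for a fold (adjusted p = 0.0474). The call of LEFTY2 ended without SALL4 replicate 1 or 2 or SEPHS1 replicate 2 (0.107, 0.0922 and 0.0775), and that of PMEPA1 without any 1 library other than SALL4 replicate 3 (0.0564 to 0.1). The call of SMAD6 ended whichever of the 6 libraries was left out (0.0806 to 0.313) and with limma-voom (0.229).

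In 3 other signalling lists few genes were called. FGFR3, a fibroblast growth factor receptor, was at 43.2, 36.1 and 23.5 CPM against 13.5, 12.0 and 11.4 CPM (1.48 ± 0.24, adjusted p = 0.00851), and ETV4, a factor induced by that pathway, was lower by 0.65 (SE 0.12, adjusted p = 0.0171). They were the called genes of 21 in the FGF list. Of 17 Hippo and YAP targets CCN1 was higher, at 260, 245 and 242 CPM against 147, 135 and 137 CPM (0.84 ± 0.12, adjusted p = 0.00355), and AMOTL1 lower (-0.87 ± 0.19, adjusted p = 0.0318). JUND, an AP-1 subunit, was at 179, 172 and 105 CPM against 62.4, 51.7 and 52.7 CPM (1.45 ± 0.19, adjusted p = 0.00243), and with IER3 it made up the 2 called of 18 immediate early genes (median 0.06). Without SALL4 replicate 3 this list had 3 higher and 6 lower and a median of -0.36, and with limma-voom 3 higher and 6 lower and a median of -0.18. Without SEPHS1 replicate 2 it had 1 higher. Without SEPHS1 replicate 2 the adjusted p of CCN1 and JUND was 0.0541 for each. FGFR3 lost its call without SALL4 replicate 1 or 2 or SEPHS1 replicate 2 (0.0579, 0.0718 and 0.079). ETV4 and AMOTL1 lost theirs without any 1 library other than SALL4 replicate 3 (0.0613 to 0.123 and 0.0541 to 0.155).

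**Figure D3:**
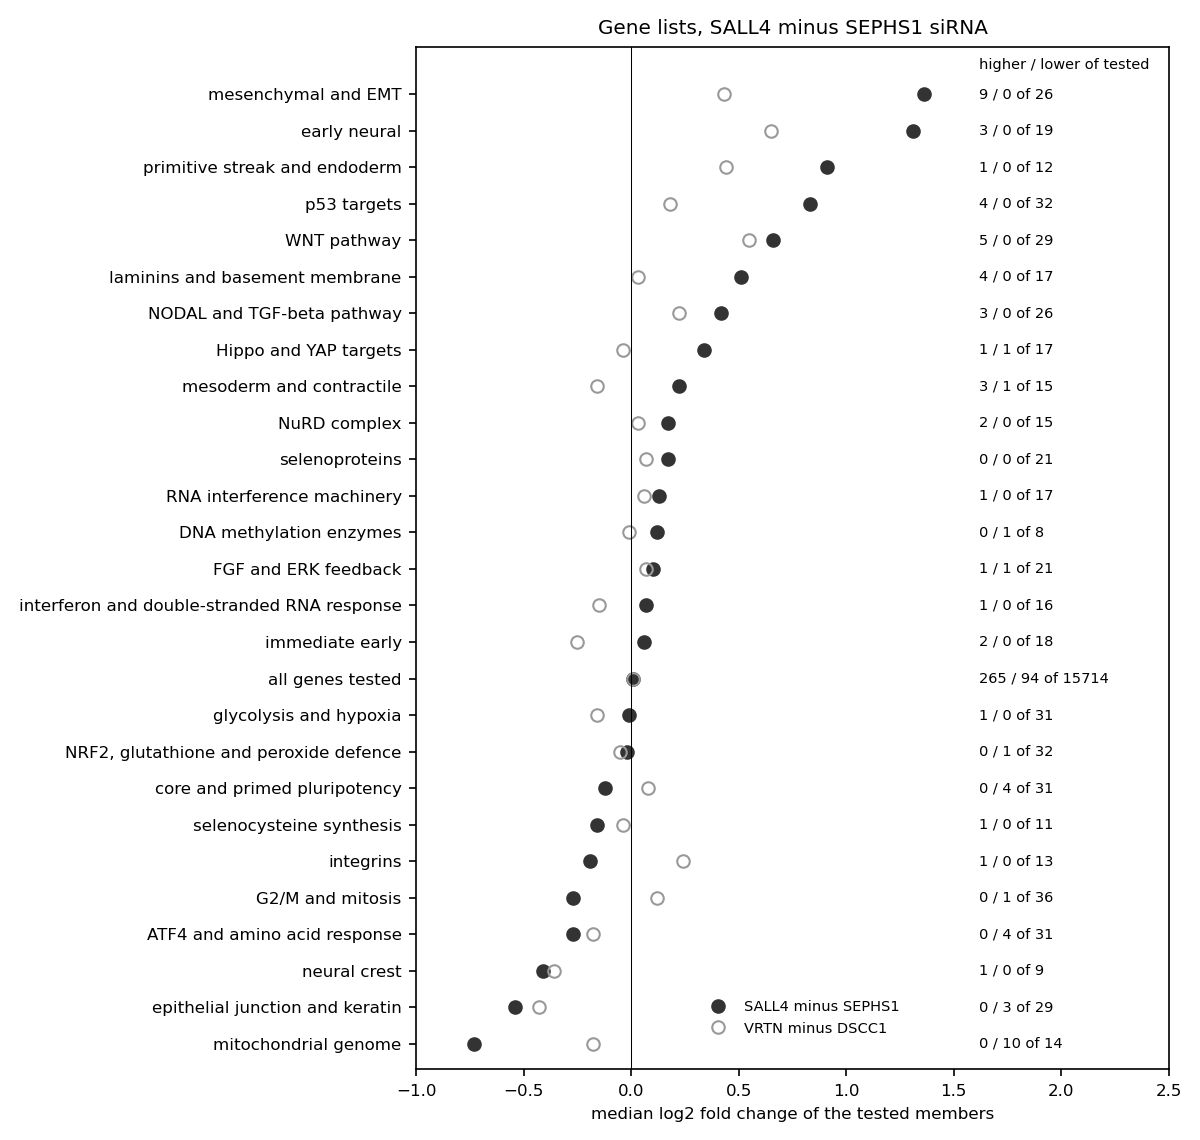
Median log2 fold change of the tested members of each gene list, for SALL4 minus SEPHS1 siRNA (filled) and VRTN minus DSCC1 siRNA (open), with the numbers of called members at the right; lists with no called member or under 5 tested members are left out, except selenoproteins, and all genes tested are added. Among the lists shown mesenchymal and early neural genes have the highest medians (1.36 and 1.31) and the mitochondrial genome the lowest (-0.73).

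The p53 target list had 4 of 32 tested higher and none lower, with a median of 0.83. TRIM22, an antiviral TRIM protein that p53 induces, was at 107, 95.0 and 73.7 CPM against 16.1, 17 and 29 CPM (2.15 ± 0.23, adjusted p = 0.000722), and its call held with each library left out. CDKN1A, the cell cycle inhibitor p21, was at 184, 171 and 30.5 CPM against 33.4, 28 and 27.7 CPM. SALL4 replicates 1 and 2 were high and SALL4 replicate 3 lay within the SEPHS1 range (2.11 ± 0.46, adjusted p = 0.0329; with DESeq2 0.0564). MDM2, the p53 ubiquitin ligase, was at 74.0, 79.7 and 42.4 CPM against 26.9, 28 and 33.5 CPM (1.15 ± 0.22, adjusted p = 0.0189). PLK2, a polo-like kinase, was higher by 1.83 ± 0.32 (adjusted p = 0.0113). The calls of CDKN1A and MDM2 ended without any 1 library other than SALL4 replicate 3 (0.105 to 0.172 and 0.0609 to 0.141), and that of PLK2 without SALL4 replicate 1 or 2 or SEPHS1 replicate 2 (0.0624, 0.0855 and 0.0939). Without SALL4 replicate 3, 14 members of the list were called, and without any other 1 library 1 to 2.

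Few cell cycle genes were called. Among the 43 tested genes for DNA replication and the G1/S transition none passed in edgeR (median -0.10), where 6 had an unadjusted p under 0.05 and DESeq2 and limma-voom called 3 and 5 lower. Of 36 genes of G2/M, CCNB2, a mitotic cyclin, was lower at 18.2, 19.6 and 26.4 CPM against 43.5, 32.0 and 44.3 CPM (-0.90 ± 0.21, adjusted p = 0.0463), and the list's median was -0.27. Its call ended without any 1 library other than SALL4 replicate 3 (0.096 to 0.228).

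Amino acid response genes, targets of the transcription factor ATF4, had 4 of 31 tested lower and none higher, with a median of -0.27. Without SALL4 replicate 3 there were 2 higher and 7 lower, and without any other 1 library 0 to 1 lower. Limma-voom called 1 higher and 8 lower. ASNS, asparagine synthetase, was at 6.57, 11.9 and 12.0 CPM against 23.4, 24.7 and 20.3 CPM (-1.16 ± 0.27, adjusted p = 0.0448). CHAC1, which degrades glutathione, was at 8.93, 7.25 and 7.22 CPM against 24.1, 16 and 21.5 CPM (-1.39 ± 0.26, adjusted p = 0.0159). For CHAC1 the SALL4 libraries lay below the other 10 (9.04 to 18.0 CPM) and the SEPHS1 libraries within or above them. PSAT1 was given above, and WARS1, a tRNA synthetase gene, fell by 0.70 (SE 0.15, adjusted p = 0.0335). The calls of ASNS, CHAC1 and WARS1 ended without any 1 library other than SALL4 replicate 3 (0.0966 to 0.169, 0.0541 to 0.109 and 0.0887 to 0.179).

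ASNS and CHAC1 both fell, and both carry the letters TGATGNAAN, the core of the amino acid response element, before their RefSeq start. The 9 matching bases are in capitals with 10 bases on each side, read 5′ to 3′ on the gene's strand of GRCh38.p14 (RefSeq).
ASNS, chr7:97872458-97872486, minus strand: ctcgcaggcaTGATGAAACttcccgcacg
CHAC1, chr15:40953251-40953279, plus strand: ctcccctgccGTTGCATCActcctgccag
The capitals begin 68 bases before the start of ASNS and 210 bases before that of CHAC1, where the match is on the other strand. Both stretches overlap an exon of a GENCODE transcript. Searched on both strands, the letters occur in the 250 bases before the start in 3.87% of 27305 genes and in 8 of 30 listed amino acid response genes with a window (26.7%).

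None of the 21 selenoprotein genes tested was called by edgeR (median 0.17). At an unadjusted p under 0.05, 3 of them passed, against 15.8% of all genes. DESeq2 called 1, SELENOF, a protein of the endoplasmic reticulum, and limma-voom called 0. SELENOF was at 15.2, 17.4 and 15.5 CPM with SALL4 and 25.7, 24.1 and 28.7 CPM with SEPHS1 siRNA (-0.71 ± 0.20, adjusted p = 0.0926; with DESeq2 0.0489). SEPHS2, GPX4 and TXNRD1 were chosen after their values were seen. GPX4, the lipid peroxide reductase, was at 127, 139 and 128 CPM against 107, 128 and 141 CPM (0.07 ± 0.14, adjusted p = 0.88). TXNRD1, a thioredoxin reductase, was at 16.4, 27.3 and 26.0 CPM against 34.8, 33.7 and 28.5 CPM (-0.48 ± 0.22, adjusted p = 0.321). SEPHS2 had 2.89 to 8.25 CPM in the 6 libraries and a standard error of 0.46 on its difference.

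Transcripts of the mitochondrial genome were lower with SALL4 than with SEPHS1 siRNA: 10 of 14 tested were called lower, none higher, with a median of -0.73, and in 13 of 14 the SALL4 libraries lay all below. MT-ND3, a subunit of respiratory complex I, was at 3240, 2330 and 3300 CPM against 5160, 6510 and 9750 CPM (-1.27 ± 0.20, adjusted p = 0.00667). For MT-ND3 the SEPHS1 libraries lay above the other 10 (1840 to 4580 CPM), and the SALL4 libraries lay within their range. MT-ND2, another complex I subunit, was at 21300, 15000 and 20400 CPM against 31200, 32300 and 47000 CPM (-0.96 ± 0.16, adjusted p = 0.00819). The ATP synthase genes MT-ATP8 and MT-ATP6 differed by -1.08 ± 0.18 and -0.89 ± 0.17 (adjusted p = 0.00819 and 0.0202). None of 41 nuclear respiratory chain genes was called by edgeR (median -0.05), where 3 had an unadjusted p under 0.05 and DESeq2 and limma-voom called 0 and 2.

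The mitochondrial share of all counts was 31.1%, 26.4% and 34.8% in the SALL4 and 38.7%, 38.9% and 45.5% in the SEPHS1 libraries, with 27.9% to 39.2% in the other 10. SEPHS1 replicate 3 held the highest share of the 16. Without it 3 of the 14 genes were called and the median was -0.57. With the length and GC correction 5 were called. Without SALL4 replicate 2 or SEPHS1 replicate 2 none was, with medians of -0.56 and -0.81, and MT-ND3 had adjusted p 0.0555 and 0.0591, MT-ND2 0.0567 and 0.0591, and MT-ATP8 0.0552 and 0.0591. MT-ATP6 lost its call without SALL4 replicate 1 or 2 or SEPHS1 replicate 2 or 3 (0.0802, 0.0915, 0.103 and 0.0929). The mitochondrial genome has copies in the nuclear genome, and how reads were divided between them is uncertain.

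**Figure D4:**
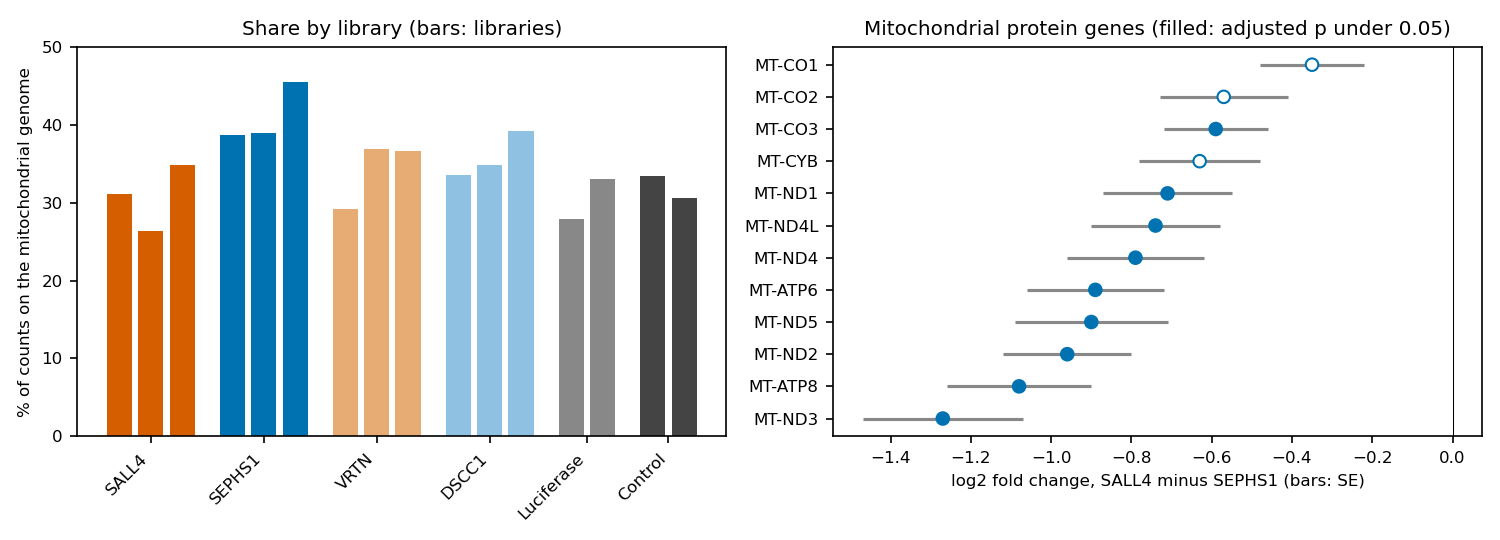
Left, percent of counts on the mitochondrial genome in each of the 16 libraries (bars), by siRNA group; right, log2 fold change of the mitochondrial protein genes, SALL4 minus SEPHS1 siRNA, with standard errors (filled: adjusted p under 0.05). The SEPHS1 libraries hold 38.7% to 45.5% and the SALL4 libraries 26.4% to 34.8%.

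Of 17 genes of the RNA interference machinery, MOV10, a helicase of the silencing complex, was called: 180, 158 and 150 CPM with SALL4 against 48.2, 38.4 and 37.0 CPM with SEPHS1 siRNA (1.98 ± 0.15, adjusted p = 4.22e-05), with 36.7 to 64.9 CPM in the other 10. Of 16 interferon and double-stranded RNA response genes IFITM1 was called, at 152, 156 and 122 CPM against 75.8, 75.3 and 92.1 CPM (0.82 ± 0.15, adjusted p = 0.0134). Of 31 genes of glycolysis and hypoxia BNIP3, a mitophagy receptor, was called (1.08 ± 0.24, adjusted p = 0.0343). None of 74 ribosomal protein genes was called by edgeR (median -0.16), where 9 had an unadjusted p under 0.05 and DESeq2 called 2. MOV10 kept its call with each library left out. IFITM1 lost it without SALL4 replicate 1 or 2 or SEPHS1 replicate 1 or 2 (0.0624, 0.105, 0.0679 and 0.115), and BNIP3 without any 1 library other than SALL4 replicate 3 (0.0775 to 0.164).

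VRTN against DSCC1 siRNA was read on the same 15714 genes, since its harvest times differ in the same way. It called 378 genes (2.41%), 151 (0.961%) higher and 227 (1.44%) lower with VRTN. Of the 359 genes called between SALL4 and SEPHS1, 56 were called there in the same direction, 15.6% of the first list and 14.8% of the second, and 14 in the opposite direction (3.9% and 3.7%). Across 5495 genes averaging at least 4 log2 CPM, the Pearson correlation of both differences was 0.201, as a description over genes that are not independent. The difference between the differences was called for 286 of all genes (1.82%; 230 or 1.46% up and 56 or 0.356% down), among them 135 of the 359 (37.6%). Without VRTN replicate 3 the second pair called 705 genes, and without any other 1 of its libraries 147 to 228. The difference was called for 688 genes without SALL4 replicate 3. Without SALL4 replicate 1 or 2, VRTN replicate 1 or 2 or any 1 DSCC1 library it was called for 121 to 183. Harvest time, target and siRNA type all differ in the second pair, so their parts cannot be told apart.

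**Figure D5:**
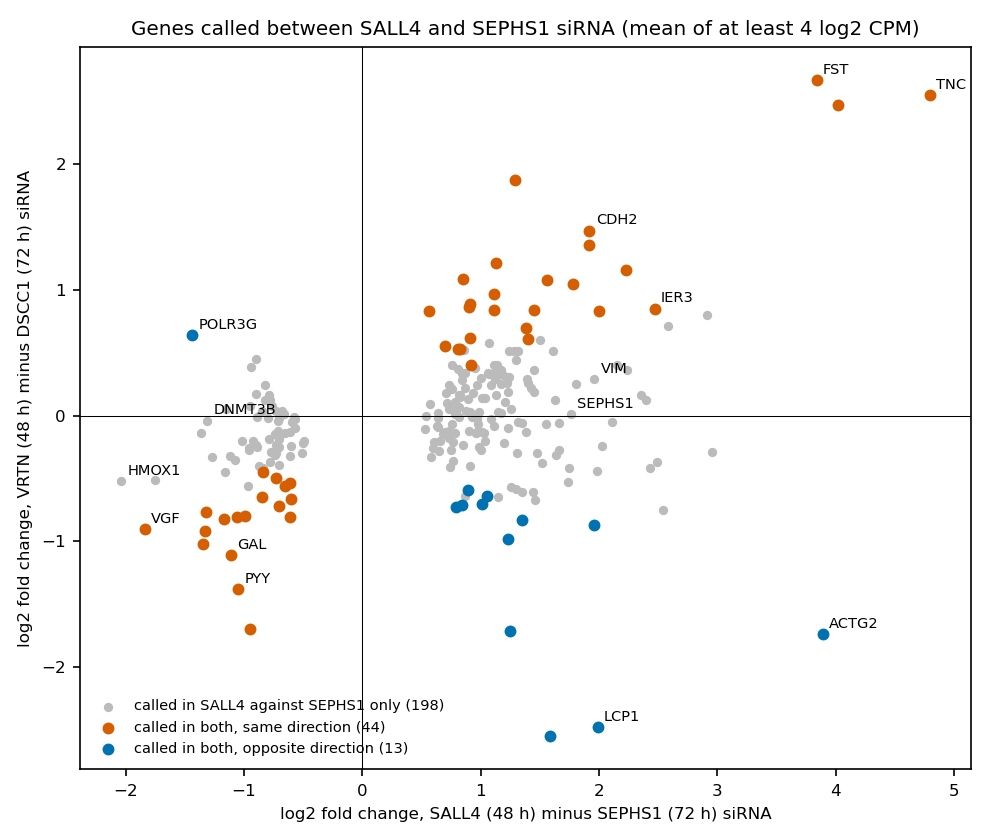
Log2 fold change of VRTN minus DSCC1 siRNA (vertical) against SALL4 minus SEPHS1 siRNA (horizontal) for the 255 genes called between SALL4 and SEPHS1 with a mean of at least 4 log2 CPM; colours show the call in the second pair. In the second pair 198 of them are not called, 44 are called in the same and 13 in the opposite direction, with ACTG2 and LCP1 far below 0.

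Genes shared by both pairs in direction included CDH2, at 69.1, 69.6 and 38.6 CPM with VRTN and 22.6, 23.6 and 18.0 CPM with DSCC1 siRNA (1.47, adjusted p = 0.000384). VGF was shared as well (-0.90, adjusted p = 0.00195), as were CDH1 (-0.81, adjusted p = 0.000636), FZD5 (1.09, adjusted p = 0.00228) and CLDN7 (-1.02, adjusted p = 0.0199). Others, chosen after their values were seen, were the neuropeptide genes GAL and PYY. GAL, galanin, was at 44.8, 36.3 and 29.5 CPM with SALL4 and 68.0, 65.9 and 105 CPM with SEPHS1 siRNA, and at 21.8, 20.9 and 33.8 CPM with VRTN and 50.8, 50.7 and 64.2 CPM with DSCC1 siRNA. Both differences were -1.11 (adjusted p = 0.018 and 0.00215). PYY, peptide YY, differed by -1.05 and -1.38 (adjusted p = 0.0123 and 0.00421). The protocadherin gene PCDH18, also chosen after its values were seen, differed by 2.0 and 0.83 (adjusted p = 0.000722 and 0.00514). The first of these calls held for PCDH18 with each library left out. It ended for GAL without SALL4 replicate 2, SEPHS1 replicate 2 or SEPHS1 replicate 3 (0.118, 0.0669 and 0.0854), and for PYY without any 1 library other than SALL4 replicate 3 (0.0564 to 0.0917).

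Genes that moved in opposite directions in the pairs included ACTG2, POLR3G and CCN1. POLR3G was at 69.9, 61.3 and 54.3 CPM with VRTN and 36.6, 37.9 and 44.8 CPM with DSCC1 siRNA (0.64, adjusted p = 0.0202). CCN1 was lower with VRTN, at 115, 113 and 120 CPM against 190, 186 and 195 CPM (-0.71, adjusted p = 0.000729). LCP1, the actin-bundling protein L-plastin, chosen after its values were seen, was at 49.6, 55.1 and 89.7 CPM with SALL4 and 18.8, 14.1 and 16.2 CPM with SEPHS1 siRNA (1.99 ± 0.24, adjusted p = 0.000935). It was at 3.34, 3.97 and 3.58 CPM with VRTN and 12.9, 31.7 and 16 CPM with DSCC1 siRNA (-2.48, adjusted p = 0.000274). Its call between SALL4 and SEPHS1 held with each library left out.

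The control libraries varied along the same genes. Replicate 1 lay above replicate 2 in both the Luciferase and the Control siRNA for 138 of the 265 higher genes (52.1%) and for 9.57% of the lower genes, against 27.8% of all genes tested. Replicate 1 lay below replicate 2 in both for 18.5% of the higher and 51.1% of the lower genes, against 26.4% of all. The log2 ratio of replicate 1 to replicate 2, averaged over both control siRNAs, gives the size. Its median was 0.2 for the higher and -0.14 for the lower genes, against 0.01 over all genes tested. VIM was at 729 and 308 CPM in Luciferase and 617 and 303 CPM in Control libraries, and FST at 32.8 and 2.86 CPM and 30.3 and 3.85 CPM. ACTG2, at 70.0 and 56.9 CPM and 66.7 and 42.7 CPM, differed less between them. The part of this spread in the differences between SALL4 and SEPHS1 siRNA was not tested.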

How the data were processed

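Poly(A) RNA from the 16 libraries was made into libraries with a SENSE kit and read as 80-base single ends, per the labels' protocols. The deposited table holds raw read counts per gene. STAR 2.4.0.1, HTSeq 0.9.1 and build GRCh38 are named in the submitters' processing notes. The strand setting is not given in the sources used here, so reads of a gene and an overlapping antisense gene cannot be told apart, and reads of near-identical genes may have been divided unevenly.

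From the counts, edgeR 4.0.16 (R 4.3.3) fitted the 6 libraries with TMM scaling, its own filter on low counts (15714 genes kept, 44961 removed) and quasi-likelihood testing; p-values were adjusted by Benjamini-Hochberg over the genes kept, with a threshold of 0.05. The same genes were fitted for VRTN against DSCC1 and, over 12 libraries, for the difference of both differences. Log2 fold changes are SALL4 minus SEPHS1, with standard errors. Levels are CPM on 1 scale for 16 libraries. Values rest on 3 replicates a group and on total counts of 18597262 to 28662389. Among the 6 libraries, the level that 3 counts give ran from 0.0981 CPM in SALL4 replicate 1 to 0.169 CPM in SEPHS1 replicate 3. This is a limit of counting error only.

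Named were SALL4 and SEPHS1, then the 12 largest rises and 12 largest falls among called genes with a symbol, a mean of at least 4 log2 CPM and groups that do not overlap. Added were up to 6 genes a direction with both groups outside the other 10 libraries on opposite sides, and up to 4 members with the smallest p in each list with 5 or more tested members. One gene that the rule names is not reported here. Genes outside this rule are said to be chosen after their values were seen. The 42 gene lists (932 genes), the members and the rules were chosen with earlier results of these data known. Gene positions are GENCODE annotation on GRCh38.

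The alternatives were other scalings, filters, DESeq2 1.42.0, limma 3.58.1 with voom quality weights, a model of all 16 libraries, a 1.5-fold minimum, a replicate block, each library left out, and, chosen after seeing the data, a correction for transcript length and GC content.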

Additional observations from a re-analysis of the deposited data

Results flagged for a closer look

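The SALL4 minus SEPHS1 difference was set against the VRTN minus DSCC1 difference, and the difference between them was called by edgeR (quasi-likelihood, adjusted p from 6.23e-12 for ACTG2 to 0.0465 for ELOA among the genes named) for 286 of 15714 genes. All values below are that difference of differences on the log2 scale, and harvest time, target and siRNA type cannot be told apart in it.

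Among genes of the cytoskeleton, matrix and cell surface it was 5.64 for ACTG2, 4.47 for LCP1, 2.85 for CDH4, 2.21 for ADAM19, 1.89 for B3GNT7, 1.68 for VIM, 1.28 for LAMA5, 1.18 for PCDH18, 1.16 for COL6A1 and ITGB5 each, 1.15 for AGRN, 0.86 for TPM1 and 0.83 for COL18A1, and for CD24 -0.87.

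Among transcription factors and other regulators of genes it was 3.30 for TOX2, 3.26 for FEZF1, 2.86 for ETS1, 2.43 for MOV10, 2.19 for SOX3 and 1.10 for JUND. It was -2.07 for POLR3G, -1.27 for DNMT3B, -1.02 for PRDM14 and -0.70 for ELOA.

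In signalling, growth and stress genes it was 2.17 for CDKN1A, 2.11 for DGKK, 1.79 for FGFR3, 1.76 for TRIM22, 1.63 for IER3, 1.56 for CCN1 and 1.14 for MDM2, and -1.33 for CCNB2. In metabolism it was -1.63 for CHAC1, -1.52 for HMOX1, -1.40 for SELENOF, -0.88 for PSAT1 and -1.20 for FAM86C1P, whose near-identical copies leave its counts uncertain. For SEPHS1 itself it was 1.76. SELENOF was not called in either pair alone (-0.71 and 0.70).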

How the results depend on the processing

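The 359 calls of SALL4 against SEPHS1 siRNA became 1070 with no filter on low counts, 867 with DESeq2, 1110 with limma-voom, 1114 with all 16 libraries in the model and 55 with a 1.5-fold minimum. They ranged from 54 to 1009 with each library left out. The 378 calls of VRTN against DSCC1 siRNA became 671 with no filter, 653 with DESeq2, 236 with all 16 libraries and 40 with the 1.5-fold minimum, and ranged from 147 to 705. The 286 calls of the difference became 602, 525 and 594 with no filter, DESeq2 and limma-voom and 55 with the 1.5-fold minimum, and ranged from 121 to 688. The causes were not tested.

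Of 87 named genes none changed direction under an alternative while called in the main fit or in that alternative. Changes of sign in genes called in neither were not counted. Calls were lost by 50 with the 1.5-fold minimum, by 50 without SALL4 replicate 2, by 52 without SEPHS1 replicate 2, by 38, 33 and 32 without SALL4 replicate 1, SEPHS1 replicate 1 and SEPHS1 replicate 3, and by 1 without SALL4 replicate 3. Limma-voom ended 6 of the calls: TNC, FST, WNT3, FRZB, SP5 and SMAD6. Depth limits genes with few counts, such as SMAD6.

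Replicate numbers are shared between groups but did not pair the libraries: same-numbered SALL4 and SEPHS1 libraries correlated at -0.0661, 0.0424 and -0.0329 over 5481 genes, and VRTN and DSCC1 libraries at 0.0719, -0.0639 and 0.0761. With the replicate block 288, 385 and 338 genes were called in the 3 comparisons, and 12 of the named genes lost their call between SALL4 and SEPHS1: SP5 (adjusted p = 0.146), SMAD6 (0.138), TPM1 (0.0856), WARS1 (0.0639), ASNS (0.0638), BNIP3 (0.0638), CDH1 (0.0604), AMOTL1 (0.0592), CDKN1A (0.0584), CCNB2 (0.0565), ELOA (0.0555) and FZD5 (0.0504). Not every library correlated best with its own number.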
